A study of Ovis aries with 115 samples.

Results

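The secretoglobin gene SCGB2A1 (ENSOARG00000014805) was followed in the mid-cervix of 114 ewes, as 1 of 27054 genes counted in 115 RNA-sequencing libraries with 1 library per ewe. The gene was selected on its difference between Norwegian White Sheep (NWS) and Suffolk ewes of the synchronised follicular phase. All breed differences of that phase, and the differences of Suffolk or NWS between it and another state, are therefore given below as description and carry no test. The ewes were multiparous adults of 4 breeds, Belclare and Suffolk from Ireland and Fur and NWS from Norway, so that, wherever an Irish breed is set against a Norwegian one, breed cannot be told apart from country. They were collected in 3 states. The synchronised follicular phase held 10 Belclare, 8 Fur, 10 NWS and 11 Suffolk ewes, whose cycle had been set with progestagen sponges followed by equine chorionic gonadotropin. The follicular phase of a natural cycle held 10 Belclare, 10 Fur, 10 NWS and 8 Suffolk ewes, which the labels place in a natural cycle. The luteal phase of a synchronised cycle held 10 Belclare, 9 Fur, 8 NWS and 10 Suffolk ewes. One further library, whose labels name different states, entered no comparison.

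Secretoglobins are small proteins secreted by mucosal and glandular epithelia, and uteroglobin, the founding member of the family, binds progesterone and other steroids. SCGB2A1, also called mammaglobin B or lipophilin C, is known from the lacrimal and mammary glands and from the female reproductive tract. The epithelium of the cervix secretes mucus whose amount and consistency follow the ovarian steroids, with abundant fluid mucus in the oestrogen-dominated follicular phase and scant thick mucus in the progesterone-dominated luteal phase.

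The libraries held 12238996 to 31261671 counts (median 17835128.5), and SCGB2A1 received between 0 and 735 of them. Levels are given as CPM, counts scaled to a common library size, on library sizes normalised by the trimmed mean of M values (TMM) over all 114 ewes, and log2 CPM uses a prior count of 2. The detection limit was set at 3 counts, which is 0.17 CPM on average and between 0.1 and 0.24 CPM in single ewes, and 11 of the 114 ewes were at or below it. This limit covers counting error only. Some libraries stood apart from their group. A phase score was computed for each ewe as the correlation, over all tested genes except SCGB2A1, of her deviation from the midpoint of her breed with the mean follicular minus luteal difference of the other 3 breeds, so that a positive score resembles the follicular phase. The score had the sign of the other phase in 7 ewes, which were NWS natural follicular replicate 3 (score -0.23), Fur synchronised follicular replicate 3 (-0.23), Fur natural follicular replicate 5 (-0.08), NWS synchronised follicular replicate 7 (-0.06), Suffolk synchronised follicular replicate 11 (-0.02) and NWS synchronised luteal replicates 1 and 6 (0.05 and 0.02). In addition, the mitochondrial gene COX-1, given as CPM on library totals without TMM, was at 26.1 to 50.7 CPM in Fur ewes. COX-1 was as low in NWS natural follicular replicates 4 and 10, at 36.3 and 31.5 CPM. Replicates 1, 5 and 6 of that group were intermediate, at 764, 1020 and 932 CPM, whereas synchronised NWS ewes were at 1370 CPM or above. For most of the comparisons that hold any of the 7 ewes or replicates 4 and 10, values without them are given as well. Replicates 1, 5 and 6 were left out only singly, in the comparison with Suffolk.

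SCGB2A1 was highest in Belclare ewes at the natural follicular phase and lowest in the luteal ewes of all breeds and in NWS. In Belclare natural follicular ewes it ranged from 3.34 to 41.7 CPM with a median of 14.1 CPM. The Suffolk follicular groups followed, at a median of 9.08 CPM (2.51 to 26.7 CPM) in synchronised and 9.07 CPM (1.86 to 19.1 CPM) in natural cycles. Next came synchronised follicular Fur ewes at 7.23 CPM (1.73 to 17.8 CPM) and synchronised follicular Belclare ewes at 6.63 CPM (0.482 to 34.9 CPM). All ewes of these 5 groups except Belclare synchronised follicular replicate 7 were above 1 CPM.

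The remaining 7 groups had medians under 2 CPM. They were Fur natural follicular at 1.72 CPM (0.629 to 8.2 CPM), NWS synchronised follicular at 1.49 CPM (0.118 to 3.38 CPM), Suffolk luteal at 1.45 CPM (0 to 28.1 CPM) and Fur luteal at 0.967 CPM (0.141 to 21.4 CPM). The lowest 3 were NWS natural follicular at 0.966 CPM (0 to 10.7 CPM), NWS luteal at 0.711 CPM (0 to 1.57 CPM) and Belclare luteal at 0.498 CPM (0.0625 to 20.4 CPM). Neighbours in this order were close: in all 11 neighbouring pairs the ranges overlapped, and in 0 of them did the means of log2 CPM differ by more than the pooled SD. The widest step, between synchronised follicular Belclare and natural follicular Fur ewes, was 1.45 on the log2 scale against a pooled SD of 1.52.

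**Figure D1:**
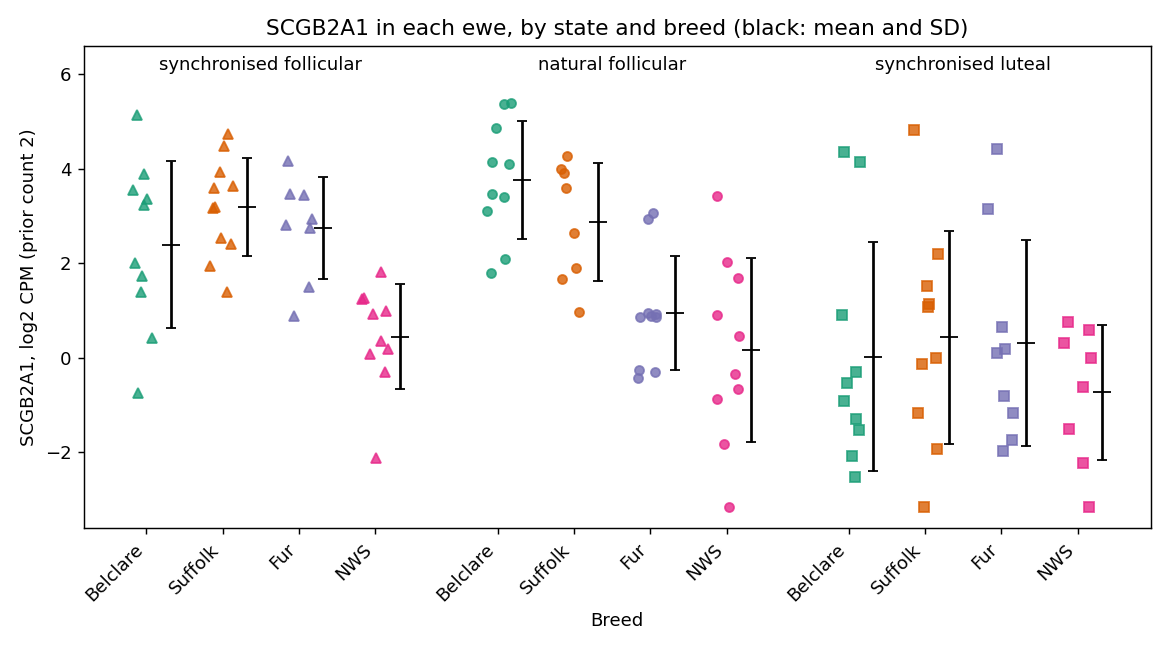
Level of SCGB2A1 in each ewe (vertical axis, log2 CPM with a prior count of 2) by breed (horizontal axis) within each state, with the group mean and SD in black. The NWS ewes lie below most ewes of the other breeds at the synchronised follicular phase, and the luteal groups hold most ewes near or below 0 with 5 ewes far above them.

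The spread among ewes of 1 group was large. The SD of log2 CPM within groups was 1.66 for SCGB2A1, compared to a median of 0.365 over the 14811 genes that passed the filter on low counts, and 148 genes had a larger one. Among the 1136 genes within 0.5 log2 units of its mean level the median SD was 0.628, and 22 genes exceeded SCGB2A1. Differences between the 12 groups made up 45.5% of the variance of its log2 CPM, compared to a median gene's 35.3%. The 12 groups include the NWS and Suffolk ewes on whose difference the gene was selected, which favours a larger share for it. These shares describe the same ewes and were not tested.

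At the synchronised follicular phase, where the gene was selected, NWS ewes had the lowest level of the 4 breeds. The median of 1.49 CPM in NWS stood against 9.08 CPM in Suffolk. The log2 fold change was -2.85 (standard error 0.45, 7.22-fold lower), and 9 of the 10 NWS ewes were below every Suffolk ewe. No NWS ewe exceeded 3.38 CPM, whereas 10 of the 11 Suffolk ewes did. Compared to Fur the log2 fold change of NWS was -2.39 (standard error 0.46), with 5 of 10 NWS ewes below every Fur ewe, and compared to Belclare it was -2.56 (standard error 0.61), with 1 of 10 below every Belclare ewe. The other breeds lay close together: Fur differed from Suffolk by -0.47 (standard error 0.44), Belclare from Suffolk by -0.29 (standard error 0.55) and Fur from Belclare by -0.17 (standard error 0.62) on the log2 scale. Without the ewes whose phase score went against their label, the NWS difference was -2.85 (standard error 0.48) from Suffolk, -2.27 (standard error 0.50) from Fur and -2.50 (standard error 0.65) from Belclare, and the Fur difference from Suffolk was -0.60 (standard error 0.48).

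The natural follicular phase was sequenced from other ewes, and there the breed differences were tested with edgeR's quasi-likelihood test, a gene passing at a Benjamini-Hochberg adjusted p under 0.05 and a fold change above 1.5. SCGB2A1 was lower in both Norwegian breeds than in Belclare. It was at a median of 0.966 CPM in NWS against 14.1 CPM in Belclare. This gave a log2 difference of -3.03 (standard error 0.70, edgeR adjusted p = 0.00564), where 13% of all genes passed in either direction. Of the 10 NWS ewes 8 were below every Belclare ewe, and 6 of the 10 Belclare ewes were above every NWS ewe. Fur ewes were at a median of 1.72 CPM, a log2 fold change of -2.79 compared to Belclare (standard error 0.56, edgeR adjusted p = 0.000577), where 15.7% of all genes passed. Again 8 of 10 Fur ewes were below every Belclare ewe, and 8 of the 10 Belclare ewes were above every Fur ewe.

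Compared to Suffolk at the natural follicular phase, Fur ewes were also lower. The log2 fold change was -1.86 (standard error 0.56, edgeR adjusted p = 0.0278), with 8 of 10 Fur ewes below every Suffolk ewe, and 9.62% of all genes passed. This call was lost without Suffolk natural follicular replicate 2 (log2 fold change -1.72, edgeR adjusted p = 0.063) or replicate 3 (-1.72, edgeR adjusted p = 0.0594), and was kept without the Fur ewe of discordant phase score (-1.80, edgeR adjusted p = 0.0455). The estimate for NWS was of like size, at -2.08 (standard error 0.73), but did not pass (edgeR adjusted p = 0.128), in a comparison where 0.993% of all genes passed. There 7 of the 10 NWS ewes were below every Suffolk ewe, and 4 of the 8 Suffolk ewes were above every NWS ewe.

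The NWS ewes of the natural cycle were uneven. NWS replicate 5 reached 10.7 CPM, replicates 1 and 4 were at 3.95 and 3.14 CPM, and replicate 3 had 0 counts, whereas the remaining 6 ewes were between 0.169 and 1.76 CPM. The highest ewes, replicates 5, 1, 4 and 6, were all ewes of reduced COX-1, as was replicate 10 at 0.519 CPM of SCGB2A1. The part of this in the comparisons was not tested. Without NWS replicate 5 the log2 fold change compared to Suffolk was -2.85 and passed (edgeR adjusted p = 0.0472). Without replicates 4 and 10 it was -2.01 (edgeR adjusted p = 0.236), and without replicate 3 it was -1.93 (edgeR adjusted p = 0.124). An exact two-sided permutation test of the mean log2 CPM gave a difference of -2.70 (p = 0.00425, 0.0213 when adjusted over the 20 tested comparisons), and DESeq2's Wald test an adjusted p of 0.0457. The adjusted p of the model fits ranged from 0.0359 to 0.24 over the alternatives. The difference from Belclare passed without replicates 4 and 10 (-2.96, edgeR adjusted p = 0.0173) and without replicate 3 (-2.90, edgeR adjusted p = 0.00475).

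Within each country no difference passed at the natural follicular phase. Belclare ewes were at a log2 fold change of 0.94 compared to Suffolk (standard error 0.53, edgeR adjusted p = 0.552), with 3 of 10 Belclare ewes above every Suffolk ewe. In that comparison 0 of 14811 genes, or 0%, passed by edgeR, 1443 had an unadjusted p under 0.05, and 18 passed by DESeq2's Wald test. NWS ewes were at -0.24 compared to Fur (standard error 0.70, edgeR adjusted p = 0.909), where 0.0338% of all genes passed. Without NWS replicates 4 and 10 the estimate was -0.17, and without NWS replicate 3 it was -0.08. These standard errors do not show that the breeds of a country were alike.

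In the luteal phase of a synchronised cycle no breed difference in SCGB2A1 passed the test with edgeR. Of the 37 luteal ewes, whose median was 0.795 CPM, 8 were at the detection limit of 3 counts or below it, and 32 were at or below 4.46 CPM. The other 5 ewes were far above. Suffolk replicate 4 had 28.1 CPM, Fur replicates 7 and 2 had 21.4 and 8.76 CPM, and Belclare replicates 7 and 9 had 20.4 and 17.5 CPM. No NWS luteal ewe exceeded 1.57 CPM. Over 5 CPM were thus 5 of 37 luteal ewes, compared to 36 of 77 follicular ewes. This limit lies in the gap between 4.46 and 8.76 CPM among the same luteal ewes. The follicular ewes include those on which the gene was selected, so these counts are a description only.

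The fitted luteal fold changes of NWS were negative with wide errors. NWS ewes were at -2.50 compared to Suffolk (standard error 0.995, edgeR adjusted p = 0.125), at -2.39 compared to Fur (standard error 0.99, edgeR adjusted p = 0.388) and at -2.51 compared to Belclare (standard error 1.09, edgeR adjusted p = 0.0953) on the log2 scale. In these comparisons 4.35%, 0.0405% and 11.6% of all genes passed. Without Suffolk luteal replicate 4 the NWS difference from Suffolk was -1.02 (edgeR adjusted p = 0.445), and without the NWS ewes of discordant phase score it was -2.96 (edgeR adjusted p = 0.15). Without those ewes NWS was at -2.86 compared to Fur and at -2.99 compared to Belclare. DESeq2's Wald test gave -2.50 compared to Suffolk (adjusted p = 0.0472), with no count of SCGB2A1 replaced. Compared to Fur it gave -1.09 (adjusted p = 0.595), having replaced the count of Fur replicate 7 as an outlier. Compared to Belclare it gave 0.40 (adjusted p = 0.665), having replaced those of Belclare replicates 7 and 9. With the replicate number as a block the NWS difference was -0.89 from Fur and 0.25 from Belclare, so that the direction compared to Belclare depended on the fit. On log2 CPM, which gives less weight to the highest ewes, the mean NWS difference was -1.16 from Suffolk (exact permutation test, two-sided p = 0.227), -1.04 from Fur (exact permutation test, two-sided p = 0.276) and -0.75 from Belclare (exact permutation test, two-sided p = 0.452). The median of Belclare luteal ewes, 0.498 CPM, was below that of NWS, although the fitted mean was higher.

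The remaining luteal comparisons had edgeR estimates close to 0 with wide errors. Belclare differed from Suffolk by 0.02 (standard error 1.05, edgeR adjusted p = 0.993), Fur from Suffolk by -0.11 (standard error 1.02, edgeR adjusted p = 0.948) and Fur from Belclare by -0.11 (standard error 1.09, edgeR adjusted p = 0.947), while 2.43%, 13.8% and 16.3% of all genes passed there. Without Fur luteal replicate 7 the Fur difference from Suffolk was -1.33 (edgeR adjusted p = 0.339), and without Suffolk luteal replicate 4 it was 1.36 (edgeR adjusted p = 0.284), so that its direction rested on single ewes. DESeq2's Wald test, which replaced the counts of Belclare replicates 7 and 9 and Fur replicate 7, gave 1.26 for Fur compared to Belclare (adjusted p = 0.132). For Belclare compared to Suffolk it gave 0.61 (adjusted p = 0.685) with Belclare replicate 7 and Suffolk replicate 4 replaced, and the replicate block gave -0.44 (edgeR adjusted p = 0.872).

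**Figure D2:**
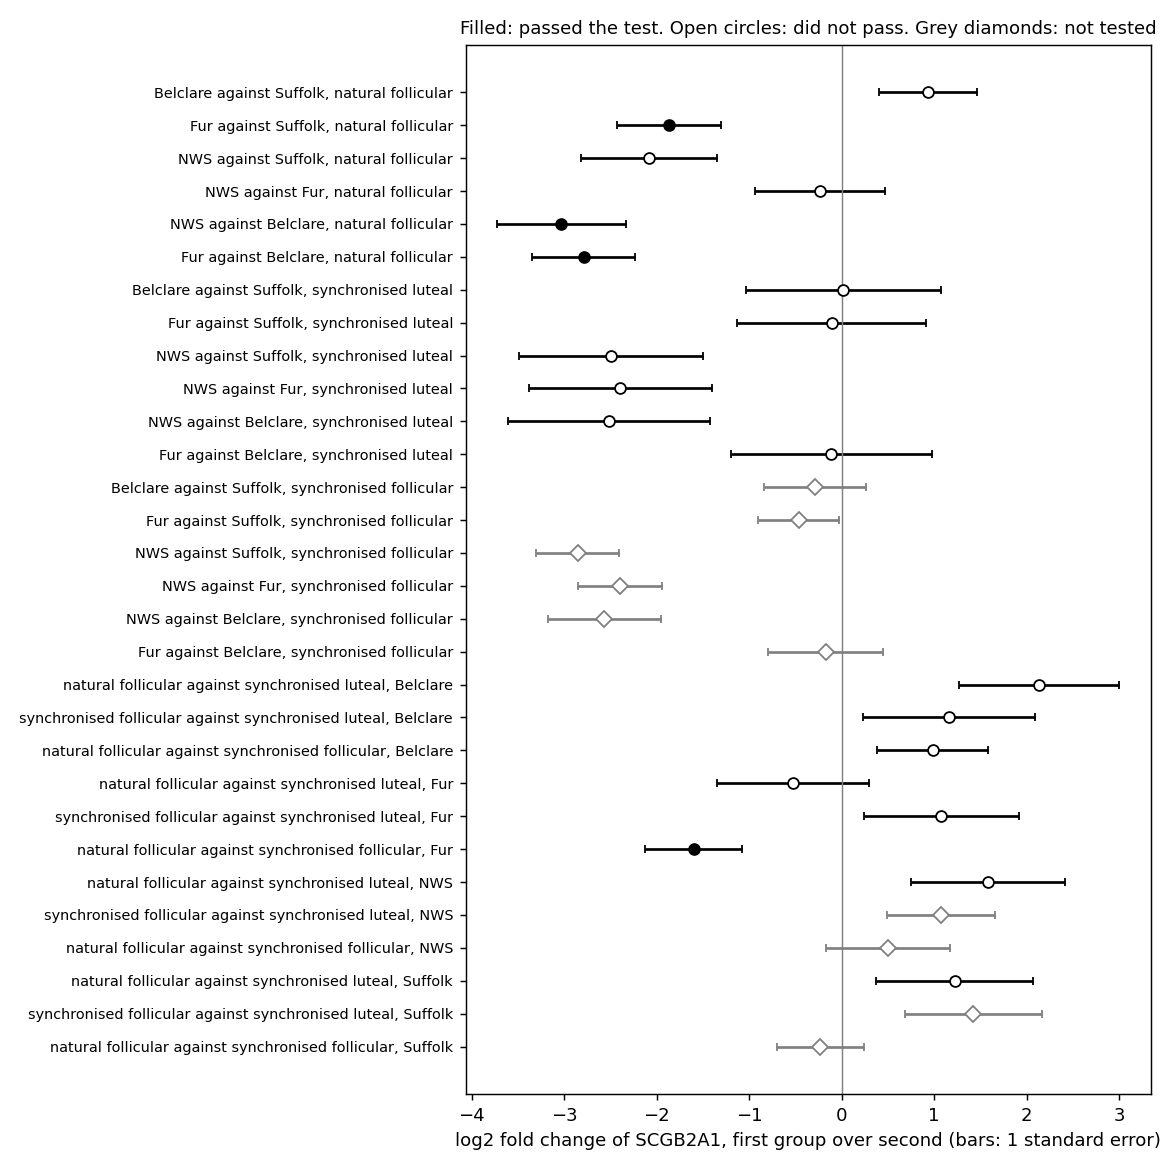
Log2 fold change of SCGB2A1 with 1 standard error (horizontal axis) in each of 30 comparisons (vertical axis), the first named group over the second. Filled circles passed the test, open circles did not, and grey diamonds were not tested, being breed differences at the phase at which the gene was chosen or differences of Suffolk or NWS between that phase and another. The 4 filled circles are Fur and NWS against Belclare and Fur against Suffolk at the natural follicular phase, and natural against synchronised follicular Fur ewes.

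Between states within a breed, the median of SCGB2A1 was higher in both follicular states than in the luteal phase in all 4 breeds. The natural follicular and luteal groups differ in phase and in kind of cycle, which cannot be told apart. In Belclare the natural follicular median of 14.1 CPM stood against 0.498 CPM in luteal ewes, and 8 of the 10 luteal ewes were below every natural follicular ewe. The log2 fold change was 2.14 (standard error 0.87) and missed the threshold with an edgeR adjusted p of 0.0556, where 19.7% of all genes passed. With all 3 states in one fit it was 2.15 (edgeR adjusted p = 0.0419), and the exact permutation test of log2 CPM gave a difference of 3.75 (two-sided p = 0.000931, 0.00621 when adjusted over the 20 tested comparisons). The adjusted p of the model fits ranged from 0.00557 to 0.0642 over the alternatives.

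In Suffolk the natural follicular against luteal difference was 1.22 (standard error 0.85, edgeR adjusted p = 0.315), with 5 of 10 luteal ewes below every natural follicular ewe, and 12.7% of all genes passed. The mean difference on log2 CPM was 2.43 (exact permutation test, two-sided p = 0.0161, 0.0403 when adjusted over the 20 tested comparisons). In NWS the difference was 1.59 (standard error 0.83, edgeR adjusted p = 0.202), where 9.11% of all genes passed. It was 2.21 (edgeR adjusted p = 0.0823) without the 3 ewes of discordant phase score, and 1.65 (edgeR adjusted p = 0.231) without replicates 4 and 10. In Fur the fitted difference was -0.52 (standard error 0.82, edgeR adjusted p = 0.636), although the median was 1.72 CPM in natural follicular and 0.967 CPM in luteal ewes and the mean difference on log2 CPM was 0.63, and 18.5% of all genes passed.

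Synchronised follicular and luteal ewes share the kind of cycle. In Belclare the medians were 6.63 and 0.498 CPM, the log2 difference being 1.16 (standard error 0.93, edgeR adjusted p = 0.328), and in Fur 7.23 and 0.967 CPM, the log2 difference being 1.08 (standard error 0.83, edgeR adjusted p = 0.304). In these comparisons 22.4% and 23.8% of all genes passed. On log2 CPM the mean differences were 2.37 (exact permutation test, two-sided p = 0.0244, 0.0542 when adjusted over the 20 tested comparisons) and 2.43 (exact permutation test, two-sided p = 0.0148, 0.0403 adjusted). Of the 9 Fur luteal ewes 7 were below every synchronised follicular Fur ewe, and the 2 high ewes weigh more in the fitted mean than in the mean of log2 CPM. As a description only, the difference was 1.42 (standard error 0.74) in Suffolk and 1.07 (standard error 0.58) in NWS, and without the ewes of discordant phase score 1.499 (standard error 0.76) and 1.63 (standard error 0.68).

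Natural and synchronised cycles were compared within the follicular phase, with a test in the breeds whose ewes did not choose the gene. The paper refers to the natural cycle of these breeds as an earlier analysis. Whether ewes of both cycles were collected and sequenced together is not given in the sources used here. Kind of cycle therefore cannot be told apart from a difference in collection or sequencing. Fur ewes had less SCGB2A1 in the natural than in the synchronised follicular phase, with medians of 1.72 and 7.23 CPM and a log2 fold change of -1.60 (standard error 0.53, edgeR adjusted p = 0.0416), where 4.92% of all genes passed. Of the 10 natural follicular Fur ewes 5 were below every synchronised ewe, and 8 were at or below 1.81 CPM, whereas the other 2 had 7.5 and 8.2 CPM. The call was lost without synchronised follicular replicate 3 (-1.54, edgeR adjusted p = 0.0589), without it and natural follicular replicate 5 (-1.50, edgeR adjusted p = 0.0911), and with all 3 states in one fit (-1.63, edgeR adjusted p = 0.136). In Belclare the medians were in the other order, 14.1 CPM in natural and 6.63 CPM in synchronised ewes, the log2 difference being 0.98 (standard error 0.60, edgeR adjusted p = 1, unadjusted p = 0.116). There 0 genes, or 0%, passed by edgeR and 0 by DESeq2's Wald test, and 291 had an unadjusted p under 0.05. As a description, Suffolk ewes differed by -0.23 (standard error 0.47) and NWS ewes by 0.50 (standard error 0.67).

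The difference between breeds in these responses was tested as an interaction, for which a gene passed at an adjusted p under 0.05. The natural minus synchronised follicular difference of Fur minus that of Belclare was -2.60 log2 units (standard error 0.84), which did not pass (edgeR adjusted p = 0.0765, unadjusted p = 0.00372), where 1.94% of all genes passed. This comparison was chosen after the levels had been seen. DESeq2's Wald test gave an adjusted p of 0.0283, and the adjusted p of the fits ranged from 0.0283 to 0.144 over the alternatives. The difference between natural follicular and luteal ewes, compared to that in Suffolk, was 0.93 log2 units larger in Belclare (standard error 1.24, edgeR adjusted p = 0.829), 0.36 larger in NWS (standard error 1.20, edgeR adjusted p = 0.979, estimates of -0.69 to 1.04 over the alternatives) while for Fur the estimate was -1.73 (standard error 1.22, edgeR adjusted p = 0.49). In these tests 0%, 0.0135% and 1.45% of all genes passed, and for Belclare 1617 genes had an unadjusted p under 0.05 and 72 passed by DESeq2's Wald test.

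The luteal ewes with high SCGB2A1 did not share a phase score. Suffolk replicate 4 and Belclare replicate 7 had scores of -0.1 and -0.13, nearer to 0 than their group medians of -0.41 and -0.56. Belclare replicate 9 and Fur replicates 7 and 2 had scores of -0.53, -0.56 and -0.63, like the other luteal ewes of their breeds. Conversely, Suffolk luteal replicates 7 and 5 had scores of -0.02 and -0.06 with 2.73 and 0.15 CPM. The Fur synchronised follicular ewe with a score of -0.23 had 10.7 CPM, above the group median. Within groups, the Spearman correlation of the score with SCGB2A1 ranged from -0.81 in Fur synchronised follicular to 0.57 in NWS luteal ewes. These correlations rest on few ewes each and are a description.

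**Figure D3:**
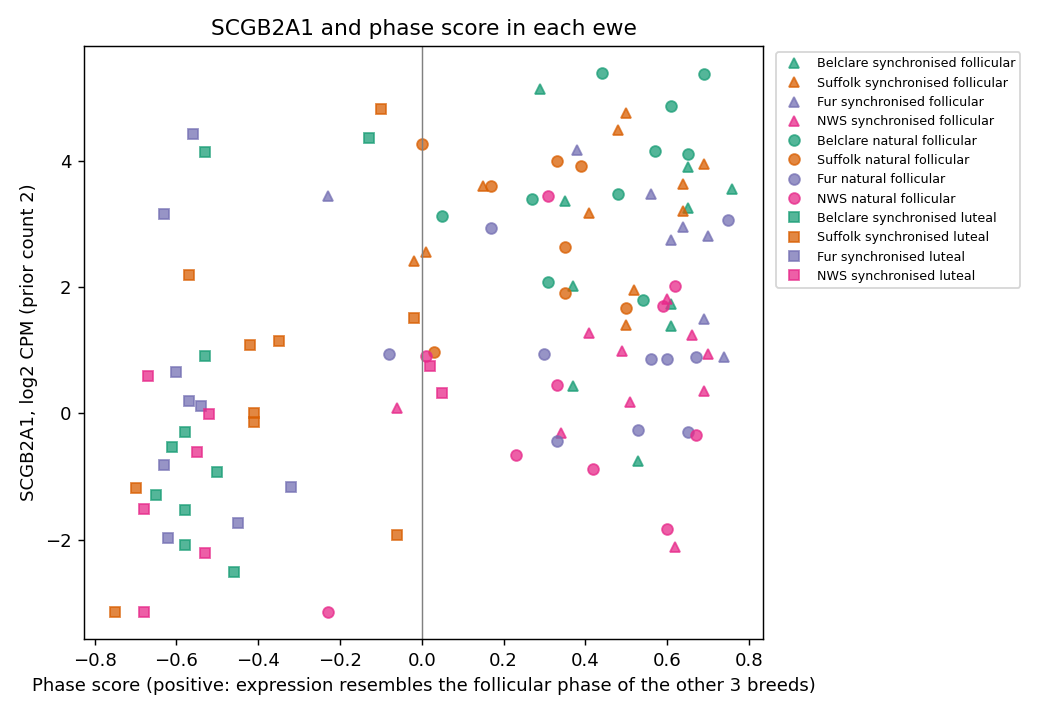
Level of SCGB2A1 (vertical axis, log2 CPM with a prior count of 2) against the phase score (horizontal axis, no unit) in each of 114 ewes, with breeds in colour and states as symbols. Most luteal ewes sit at the lower left, and of the 5 luteal ewes with high levels 3 have scores between -0.63 and -0.53.

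The summed levels of cell type markers were unlike in the Irish and Norwegian breeds. The summed level of 18 epithelial markers (among them CDH1 and CLDN4) was 2240 to 3570 CPM in Belclare and 1820 to 3310 CPM in Suffolk natural follicular ewes, compared to 1410 to 2200 CPM in Fur and 1240 to 2660 CPM in NWS ewes. All 18 had counts in every ewe. The summed level of 6 smooth muscle markers went the other way, at medians of 569 CPM in Belclare and 482 CPM in Suffolk against 5140 CPM in Fur and 5690 CPM in NWS, with single Irish ewes as high as 6650 and 6140 CPM. Both lists were taken from genes that the study's tables name, most of which differed at the synchronised follicular phase. All 6 smooth muscle genes are among the paper's top genes lower in Suffolk than in Fur or NWS at that phase. The direction of this contrast was therefore favoured by the choice of the list. ACTC1, POPDC2 and PCP4 were at 0 in 1, 6 and 3 of 30 Belclare ewes, and POPDC2 and PCP4 in 2 and 4 of 29 Suffolk ewes. In such bulk tissue, fewer cells of a type and less RNA per cell cannot be told apart.

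Taken relative to the mean log2 CPM of the epithelial markers, SCGB2A1 was lower in the Norwegian breeds than in Belclare at the natural follicular phase. The difference was -2.87 in NWS (exact permutation test, two-sided p = 0.00233, 0.0155 when adjusted over the 20 tested comparisons) and -2.12 in Fur (exact permutation test, two-sided p = 0.00228, 0.0155 adjusted). Compared to Suffolk it was -2.16 in NWS (exact permutation test, two-sided p = 0.0222, 0.0555 adjusted) and -1.42 in Fur (exact permutation test, two-sided p = 0.0271, 0.0602 adjusted). Across the 114 ewes, after each group's mean was subtracted, SCGB2A1 had a Spearman correlation of -0.10 with the epithelial and 0.05 with the smooth muscle markers, as a description over libraries that share their depth and tissue make-up. The epithelial list hardly followed SCGB2A1 within groups, so this scaling does not test the part of epithelium in the breed differences. The part of smooth muscle was not tested either.

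**Figure D4:**
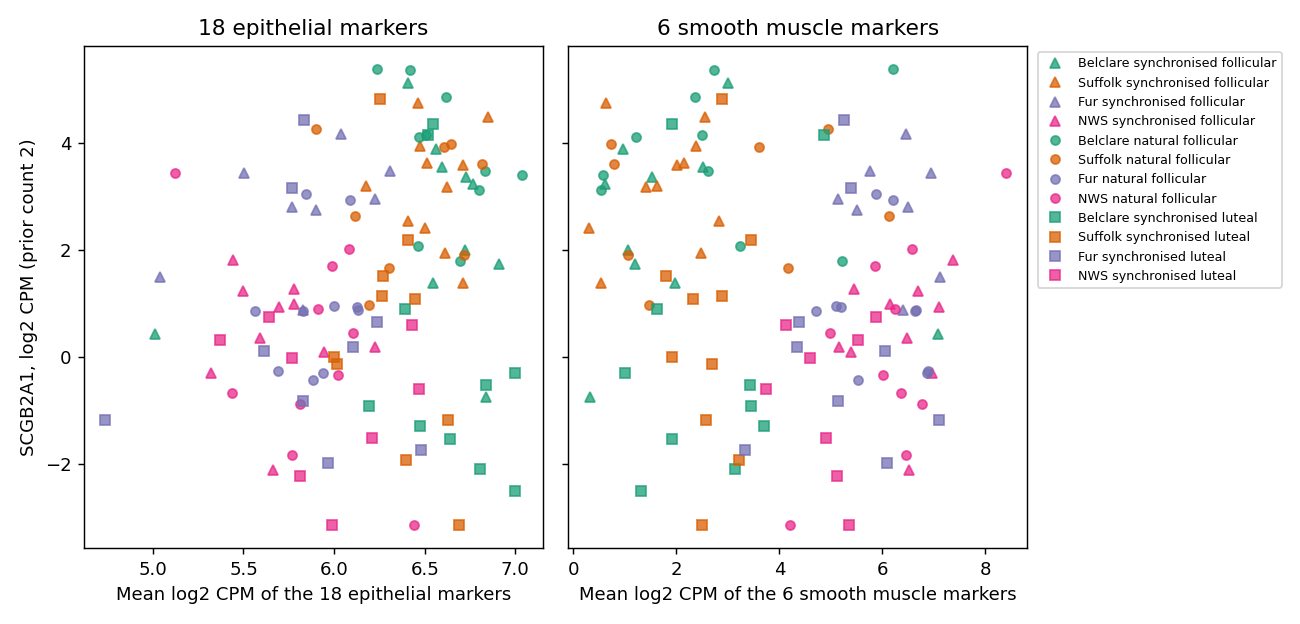
Level of SCGB2A1 (vertical axis, log2 CPM with a prior count of 2) against the mean log2 CPM of the 18 epithelial (left) and 6 smooth muscle markers (right, horizontal axes) in each ewe, with breeds in colour and states as symbols. The Irish and Norwegian ewes tend to differ along both horizontal axes, most clearly on the right, but overlap on both. Ewes of 1 group show little relation of SCGB2A1 to either list.

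Lists of genes around the gene's known setting were read in the same comparisons, taken from genes that the study's tables name, most of which differed at the synchronised follicular phase. In NWS compared to Suffolk at the natural follicular phase, 3 of 18 epithelial genes were lower and 0 higher. These were CLDN3, a tight junction protein, at -1.09 (standard error 0.26, edgeR adjusted p = 0.0491), ST14, the membrane protease matriptase, at -0.97 (standard error 0.21, edgeR adjusted p = 0.0411), and LSR, a protein of tricellular junctions, at -0.66 (standard error 0.13, edgeR adjusted p = 0.0381). The list's median was -0.52, compared to 0.01 over all genes tested, of which 79 passed as higher and 68 as lower. None of 6 smooth muscle genes passed there (median 2.12), although all 6 had an unadjusted edgeR p under 0.05, and 0 of 10 leukocyte genes (median -0.41) and 0 of 5 genes of fibroblasts and vessels (median -0.12) passed, with 2 and 0 at an unadjusted p under 0.05.

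Of 13 genes of steroid response and metabolism, 2 were lower and 0 higher in NWS at the natural follicular phase, with a median of -0.93. The oxytocin receptor OXTR was at -4.24 (standard error 0.95, edgeR adjusted p = 0.0432) and the oestrogen receptor beta gene ESR2 at -1.90 (standard error 0.45, edgeR adjusted p = 0.0489). FKBP5, a co-chaperone of steroid receptors, was at -1.44 (edgeR adjusted p = 0.0578) and did not pass. None of 10 mucins and secreted proteins passed (0 higher, 0 lower, median -0.60), and MUC16, a membrane-bound mucin, was at -1.48 (edgeR adjusted p = 0.0643). None of 6 transcription factors of glands and the Mullerian duct passed either (median -0.68), with SOX17 at -0.69 (edgeR adjusted p = 0.0578) and PAX8 at -0.85 (edgeR adjusted p = 0.0749). An unadjusted edgeR p under 0.05 was reached by 2 of the 10 mucins and secreted proteins and by 5 of the 6 transcription factors.

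In Fur compared to Suffolk at the natural follicular phase the lists were read in the same way, with 8 of 18 epithelial genes (median -0.55), 4 of 10 mucins and secreted proteins (median -1.07), 4 of 6 gland transcription factors (median -0.63) and 3 of 13 steroid genes (median -0.66) passing as lower and 0 as higher, compared to 752 lower and 673 higher genes of 14811 and a median of -0.03. Of 6 smooth muscle genes 1 was higher and 0 lower there (median 1.91). None of 10 leukocyte genes (median -0.54) and none of 5 genes of fibroblasts and vessels (median -0.29) passed. In luteal NWS ewes compared to Suffolk 2 of 10 mucins and secreted proteins were lower, MUC16 at -0.93 (standard error 0.26, edgeR adjusted p = 0.0357) and the secreted gel-forming mucin MUC5AC at -2.57 (standard error 0.70, edgeR adjusted p = 0.0297), which was named after its value had been seen, and 5 of 6 smooth muscle genes were higher. Lower were also 2 of 10 leukocyte genes, 2 of 6 gland transcription factors, 1 of 18 epithelial genes and 1 of 13 steroid genes, while over all 14811 genes 430 were higher and 215 lower.

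Between states the lists moved in both directions. In Belclare natural follicular compared to luteal ewes, where SCGB2A1 was at 2.14, 5 of 13 steroid genes were higher and 0 lower (median 0.54), 4 of 10 mucins and secreted proteins were higher and 1 lower (median 0.23), and 2 of 6 gland transcription factors were lower (median -0.42). In Suffolk 4 of 13 steroid genes were higher and 0 lower (median 0.54), and 2 of 10 mucins and secreted proteins were higher and 1 lower (median 0.69). The cell type markers moved as well. Of 10 leukocyte genes 4 were lower in both breeds (medians -0.72 in Belclare and -0.82 in Suffolk), with 1 higher in Belclare. Of 5 genes of fibroblasts and vessels 3 were higher in Belclare and 1 in Suffolk (medians 0.68 and -0.07), 1 of 6 smooth muscle genes was higher in each (medians 0.79 and 1.75), and of 18 epithelial genes 2 were lower in Belclare and 1 higher in Suffolk (medians 0.10 and 0.15). Their part in the SCGB2A1 difference was not tested. Relative to the epithelial markers the SCGB2A1 difference was 3.78 in Belclare (exact permutation test, two-sided p = 0.00119) and 2.36 in Suffolk (exact permutation test, two-sided p = 0.0218). Over all genes 1601 were higher and 1323 lower in Belclare, and 1023 higher and 865 lower in Suffolk. These counts leave out genes that were too low in synchronised follicular ewes to be tested.

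The genes whose level followed SCGB2A1 most closely from ewe to ewe were sought by the Spearman correlation of log2 CPM after each group's mean was subtracted, over 114 ewes and 14810 genes. No correlation was high: 0 genes exceeded 0.5 and 0 were under -0.5. The highest 5 were ENSOARG00000002962 (0.47), ENSOARG00000016129 (0.46), ENSOARG00000014766 (0.46), ENSOARG00000017817 (0.45) and ENSOARG00000010701 (0.44), which the study's tables do not pair with a symbol. Only 2 of these were among the highest 5 by Pearson's correlation, and 4 of them without the ewes of highest and lowest SCGB2A1. The lowest 3 were ENSOARG00000009772 (-0.48), ENSOARG00000005732 (-0.46) and ENSOARG00000020266 (-0.46).

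Among genes with a symbol the highest were PLA2G10, a secreted phospholipase (0.39), MFRP, a frizzled-related membrane protein (0.38), PLD3, a phospholipase D family member of lysosomes (0.38), FUCA1, the lysosomal fucosidase (0.37), and ABCG1, a cholesterol exporter (0.37). By group, PLA2G10 was at a median of 23.6 CPM in Belclare synchronised follicular and 4.78 CPM in Belclare luteal ewes, but at 23.5 CPM in NWS natural follicular ewes, where SCGB2A1 was at 0.966 CPM. ABCG1 was at 1120 CPM in Belclare natural follicular, 355 CPM in NWS natural follicular and 227 CPM in Belclare luteal ewes, and its 12 group means had a Pearson correlation of 0.85 with those of SCGB2A1. The group means most like those of SCGB2A1 were of ENSOARG00000003056 (0.95), ENSOARG00000009963 (0.93), ENSOARG00000008295 (0.93), ENSOARG00000020958 (0.92) and ENSOARG00000021037 (0.92). ENSOARG00000009963 was at medians of 14500 CPM in Belclare and 3530 CPM in NWS natural follicular ewes and 2840 CPM in Belclare luteal ewes. All of these correlations are over libraries that share the tissue's make-up and the phase of the ewe, and are a description.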

How the data were processed

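RNA of the mid-cervix of 115 ewes was prepared by the authors with a stranded TruSeq mRNA kit and sequenced as read pairs. They trimmed the reads with BBDuk, aligned them to Oar_v3.1 with STAR 2.6.1b, kept uniquely mapped pairs and assigned them to Ensembl genes by featureCounts (Subread 1.6.3). The authors deposited raw read counts per gene and ewe, without normalization, so pairs that match several places or differ much from the reference were lost before counting. Whether strand was used in counting is not given in the sources used here, so reads of an overlapping antisense gene could not be told from those of SCGB2A1.

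Groups were taken from the labels, and 1 library whose labels name different states was left out. A gene was tested if it reached 1 CPM in 10 or more of the 39 ewes of the synchronised follicular phase, which 14811 genes did. Genes below this in that phase, among them any expressed mainly in the luteal phase, are absent from all shares and counts of genes. Each comparison was fitted on its own ewes with edgeR 4.0.16 in R 4.3.3, using TMM normalization, the quasi-likelihood F test and Benjamini-Hochberg adjustment over all 14811 genes, with a gene passing at an adjusted p under 0.05 and a fold change above 1.5. Standard errors are the size of the log2 fold change divided by the square root of F. Of 30 comparisons 20 were tested, with 4 interactions, of which 3 had been planned. In place of these, DESeq2 1.42.0 (size factors, and the Wald test, which replaces counts it takes for outliers), no filter or at least 10 counts in every ewe, a joint fit of all breeds or states, a block for the replicate number, each ewe left out (for NWS and Fur against Suffolk at the natural follicular and luteal phases), exact permutation of log2 CPM and scaling to the epithelial markers were tried. Leaving out ewes by phase score or COX-1 level was added after the data had been seen. The tests were tried on simulated counts.

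The gene, the gene lists and the tests were chosen with earlier results of these data known. Genes named beside SCGB2A1 were the 5 of highest and 3 of lowest correlation within groups, the 5 highest with a symbol, the 5 of most similar group means, and at most the 4 members of a list with the smallest p in NWS against Suffolk at the natural follicular phase. Symbols come from the study's tables, which name 1352 identifiers. No library repeated another of its group: over 490 pairs the chi-square of their counts per degree of freedom was at least 15.4. That each library is another ewe is taken from the labels, and p-values measure the spread between these libraries. Replicate numbers come from the titles and are taken to name different animals.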

Additional observations from a re-analysis of the deposited data

Results flagged for a closer look

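In 4 of the 11 groups of 10 ewes or fewer the highest ewe stood farther from the rest than the critical value of Dixon's test allows, and chance alone would flag about 1 in 20 groups. They were Belclare synchronised follicular replicate 5 at 34.9 CPM against a next highest of 14.7 CPM, Fur luteal replicate 7 at 21.4 CPM against 8.76 CPM, NWS natural follicular replicate 5 at 10.7 CPM against 3.95 CPM, and Suffolk luteal replicate 4 at 28.1 CPM against 4.46 CPM. The limit was applied to CPM, a scale on which the levels within groups are skewed.

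The library whose title places it in the natural follicular phase of Suffolk but whose other labels name a synchronised luteal ewe had 16 counts of SCGB2A1, or 0.922 CPM, above the detection limit of 3 counts. It was below the lowest Suffolk natural follicular ewe (1.86 CPM) and within the range of Suffolk luteal ewes (0 to 28.1 CPM).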

How the results depend on the processing

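Over the 24 tested results 218 alternative fits were made, of which 203 kept their side of the threshold, 8 passed where the reported fit had not, 7 no longer passed, and 0 turned the direction of a call. Of 40 exact permutation tests, with p adjusted over the 20 tested comparisons, 34 kept it, 5 passed and 1 no longer passed, which was Fur compared to Suffolk at the natural follicular phase relative to the epithelial markers (-1.42, adjusted p = 0.0602). Of 80 values without a test 79 stayed within their limit. The limit was the SD between ewes, or the standard error for fits without the ewes of discordant phase score. The SD is a wide limit, and staying within it does not show a stable estimate. With the replicate block, synchronised follicular against luteal Suffolk ewes went from 1.42 to 2.98 within it. Natural against synchronised follicular NWS ewes went from 0.50 to -0.39, and Fur against Belclare at the synchronised follicular phase from -0.17 to 0.65. For the genes most like SCGB2A1 the limit was the number of genes kept, and these under Pearson's correlation were the exception. NWS compared to Suffolk at the natural follicular phase passed by DESeq2's Wald test (-2.08, adjusted p = 0.0457), with all 4 breeds in one fit (-2.10, edgeR adjusted p = 0.0359), by exact permutation of log2 CPM (-2.70, adjusted p = 0.0213) but not, once adjusted, relative to the epithelial markers (-2.16, adjusted p = 0.0555), and at the luteal phase by DESeq2's Wald test (-2.50, adjusted p = 0.0472). Belclare natural follicular compared to luteal ewes passed by DESeq2's Wald test (2.15, adjusted p = 0.031), with all 3 states in one fit (2.15), by exact permutation (3.75) and relative to the epithelial markers (3.78). By the last 2 alternatives the p was under 0.05 before adjustment for synchronised follicular compared to luteal ewes in Belclare (2.37 and 2.51) and Fur (2.43 and 2.44) and for natural follicular compared to luteal ewes in Suffolk (2.43 and 2.36). After adjustment only the values of log2 CPM in Fur and Suffolk passed (both adjusted p = 0.0403). Fur natural compared to synchronised follicular ewes no longer passed without a filter (-1.62, edgeR adjusted p = 0.051), with all 3 states in one fit (-1.63), without synchronised follicular replicate 3 (-1.54) or without both Fur ewes of discordant phase score (-1.50). The added interaction of kind of cycle with Fur against Belclare passed by DESeq2's Wald test (-2.62, adjusted p = 0.0283). The causes were not tested.

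With single ewes left out, the log2 fold change compared to Suffolk ranged from -2.85 to -1.86 for NWS and from -2.23 to -1.65 for Fur at the natural follicular phase, and from -2.73 to -1.02 and from -1.33 to 1.36 in luteal ewes. The stricter filter of at least 10 counts in every ewe left SCGB2A1 out of every comparison in which a ewe was below it. Of the 5 genes most like SCGB2A1, 2 were kept under Pearson's correlation.

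With the replicate number as a block, Belclare natural follicular compared to luteal ewes was at 3.84 (edgeR adjusted p = 0.00557) and Fur natural compared to synchronised follicular ewes at -1.77 (edgeR adjusted p = 0.0918), and no other call changed. That the numbers name different animals is taken from the labels. In 0 of 30 comparisons did every same-numbered pair correlate above 0.1 in its deviations from the group means, and in 0 was every ewe matched best by her own number. This check could not detect single repeated animals, and many of the comparisons are between breeds, so it does not test the point.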
